A study of Homo sapiens with 6 samples.

Results

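The proteasome is the barrel-shaped protease that degrades ubiquitin-tagged proteins in the cytosol and nucleus. The genes described here are those whose symbols begin with PSM followed by a letter from A to G and a digit, without pseudogenes and antisense symbols. This rule found 47 of the 17787 gene symbols listed in the files. They cover the alpha and beta subunits of the 20S core, the 19S cap that recognises and unfolds substrates, the 11S and other activators, an inhibitor and the assembly chaperones. One symbol, PSMC3IP, matches the pattern but encodes a partner of the recombinase DMC1 and is no proteasome subunit. PSMA8 and PSMB11, the testis and thymus core subunits, were listed in no file.

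RNA was sequenced from A549, an established human line from a lung adenocarcinoma, in 6 libraries. Libraries labelled siNC, with the genotype label wild type, numbered 3 and served as controls, and the other 3 were labelled siFOXD3, after a small interfering RNA against the forkhead transcription factor FOXD3. The labels give no dose, no time after transfection and no statement that replicates were separate cultures, so a p-value here reflects no more than the spread among libraries, which may be technical. Values are FPKM, a fragment count corrected for transcript length and sequencing depth, so levels of different genes can be set side by side.

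A 20S core is a stack of alpha and beta rings, and only the beta subunits PSMB5, PSMB6 and PSMB7 carry catalytic sites. In cells exposed to interferon, and constitutively in many immune cells, PSMB8, PSMB9 and PSMB10 are built in at those 3 places instead, which gives the immunoproteasome, whose products suit presentation on class I molecules. PSME1 and PSME2 form the 11S activator PA28, which is likewise induced by interferon gamma.

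FOXD3 was listed at 0.152, 0.291 and 0.134 FPKM in the siNC libraries while among the siFOXD3 libraries only replicate 2 listed it, at 0.0749 FPKM. At under 1 FPKM in every library it was not tested, so these values do not establish the extent of the knockdown. The steps between low values gave an estimated 7700000 to 8780000 fragments per library. All 5 epithelial markers (KRT8, KRT18, KRT19, EPCAM and CDH1) were at 40.9 FPKM or more in every library. The labels' protocol mentions retina, and the 14 photoreceptor markers summed to 4.82 to 4.97 FPKM in siNC and 5.93 to 7.69 FPKM in siFOXD3. ABCA4 (1.62 ± 0.260 to 2.82 ± 0.153 FPKM) and ROM1 (0.937 ± 0.00955 to 1.99 ± 0.350 FPKM) were called higher in siFOXD3 (limma, adjusted p = 0.00122 and 0.000938). The rest were too low to be tested, with GNAT1, SAG and RCVRN listed in no library. Of 12555 genes tested with limma (Benjamini-Hochberg adjusted p under 0.05), 65.9% were called, 27.2% as higher and 38.7% as lower in siFOXD3. The lower share of all calls was 58.7% as deposited, 50.1% with median-of-ratios scaling and 48.1% with quantile normalization.

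A short motif lies in the promoter windows of 4 of the 5 genes of the immunoproteasome and PA28, and all 5 promoters are shown because these genes are set against the constitutive subunits in what follows. The sequences are from RefSeq on GRCh38.p14, while the deposited values were made on hg19. Each runs 5′ to 3′ on the gene's own strand from 150 bases before the annotated start to 30 bases after it. Capitals mark GAAA followed by any 2 bases and GAAA again, on either strand, the core of an interferon-stimulated response element, in the first 6, and CCAAT on either strand in PSMA3, a constitutive subunit shown for comparison. The windows are PSMB8 at chr6:32844018-32844197 (minus strand, at the downstream one of its 2 annotated starts, which holds the motif while the other does not), PSMB9 at chr6:32854042-32854221 (plus), PSMB10 at chr16:67936821-67937000 (minus), PSME1 at chr14:24136044-24136223 (plus), PSME2 at chr14:24146581-24146760 (minus), TAP1 at chr6:32853675-32853854 (minus, likewise the one of its 2 annotated starts whose window holds the motif) and PSMA3 at chr14:58244693-58244872 (plus).
PSMB8: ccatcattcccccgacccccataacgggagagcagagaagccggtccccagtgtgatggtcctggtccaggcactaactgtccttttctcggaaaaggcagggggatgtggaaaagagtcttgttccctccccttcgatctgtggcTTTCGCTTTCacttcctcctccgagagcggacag
PSMB9: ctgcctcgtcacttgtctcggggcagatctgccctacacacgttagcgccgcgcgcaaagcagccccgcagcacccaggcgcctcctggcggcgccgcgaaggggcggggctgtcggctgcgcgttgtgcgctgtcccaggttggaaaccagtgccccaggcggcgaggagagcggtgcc
PSMB10: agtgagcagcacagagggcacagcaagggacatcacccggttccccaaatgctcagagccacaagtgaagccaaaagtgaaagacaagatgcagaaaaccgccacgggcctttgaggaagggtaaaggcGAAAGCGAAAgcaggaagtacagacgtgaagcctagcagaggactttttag
PSME1: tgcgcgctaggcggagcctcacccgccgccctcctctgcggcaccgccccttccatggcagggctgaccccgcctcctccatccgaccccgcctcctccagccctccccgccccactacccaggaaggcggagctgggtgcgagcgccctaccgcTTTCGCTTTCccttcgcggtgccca
PSME2: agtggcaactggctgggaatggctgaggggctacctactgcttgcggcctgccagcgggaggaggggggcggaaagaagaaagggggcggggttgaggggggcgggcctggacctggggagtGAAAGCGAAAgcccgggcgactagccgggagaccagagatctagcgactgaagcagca
TAP1: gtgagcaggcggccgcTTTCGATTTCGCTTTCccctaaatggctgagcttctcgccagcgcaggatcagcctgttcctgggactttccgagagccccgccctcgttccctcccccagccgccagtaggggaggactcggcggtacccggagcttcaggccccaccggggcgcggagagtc
PSMA3: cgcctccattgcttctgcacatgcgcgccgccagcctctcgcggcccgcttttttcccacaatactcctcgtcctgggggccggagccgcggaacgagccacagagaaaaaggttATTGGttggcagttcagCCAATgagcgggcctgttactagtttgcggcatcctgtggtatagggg

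The motif begins 4 bases before the start in PSMB8, 21 before it in PSMB10, 28 before it in PSME2 and 5 after it in PSME1. PSMB9 has none in its own window. Its neighbour TAP1, a subunit of the peptide transporter that feeds class I molecules, is transcribed away from it from a start 488 bases off. The TAP1 window shown holds 2 overlapping copies between these starts, at 363 and 369 bases before the PSMB9 start. Of the 41 proteasome genes with a window of 300 bases in the table, 7 (17.1%) held this motif, against 4.38% of all 27305 genes there. The 6 proteasome genes without a window were not searched, so the shares here leave them out. The 7 were 4 of the 5 immunoproteasome and PA28 genes (PSMB8, PSMB10, PSME1 and PSME2) and 3 of the other 36 (PSMA4, PSMB4 and PSMG4). CCAAT was in the windows of 20 of the 41 (48.8%, against 39.7% of all genes), namely PSMB9 and 19 of the other 36. TGACNNNGC, the core of the antioxidant response element through which NFE2L1 and NFE2L2 act, was in 15 (36.6%, against 16.1%). These were 3 of the 5 immunoproteasome and PA28 genes (PSMB9, PSME1 and PSME2) and 12 of the other 36. TTCNNNGAA, the interferon gamma-activated site, was in 7 (17.1%, against 9.38%). These were PSMB8 and 6 of the other 36 (PSMA2, PSMB5, PSMC4, PSMD2, PSMD3 and PSME3). Both strands were searched for each, and a match is a description of letters only.

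All 47 genes passed the filter on low values (1 FPKM or more in 3 or more of the 6 libraries), with the lowest single value at 7.07 FPKM, so the filter chose none of them. In siFOXD3, 37 rose, 4 fell and 6 were not called by limma (adjusted p over the 12555 genes). The 41 called compare with 65.9% of all genes, the 37 with 27.2% called higher and the 4 with 38.7% called lower. The 4 that fell were PSMB8, PSMB9, PSMB10 and PSME1. For 43 of the 47 the siNC and siFOXD3 ranges were separate, against 70.7% of all genes. The median log2 fold change over the 47 was 0.41, and over all genes tested it was -0.08. Summed over the 47 genes, FPKM was 4438, 4134 and 4006 in siNC and 5359, 5366 and 5311 in siFOXD3, with no overlap between the groups.

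**Figure D1:**
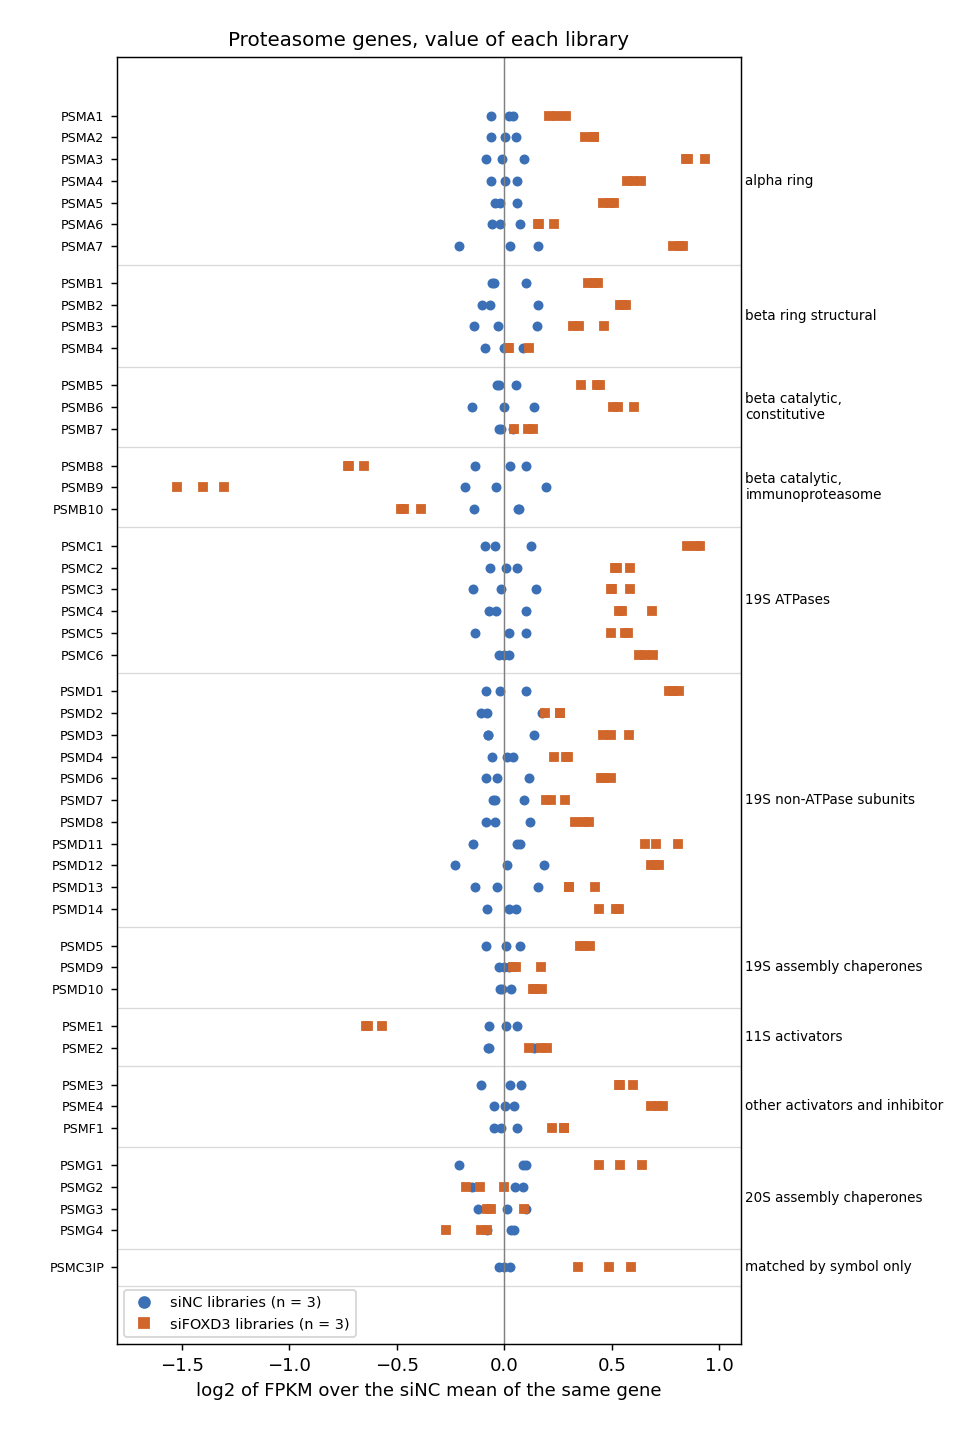
Each point is 1 library of 1 gene, as log2 of its FPKM over that gene's siNC mean (circles siNC, squares siFOXD3, 3 libraries each), with genes grouped by role. The siFOXD3 squares of PSMB8, PSMB9, PSMB10 and PSME1 sit to the left of their siNC circles, while those of all alpha subunits and all 19S ATPases sit to the right.

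Immunoproteasome subunits fell, and 2 of the 3 constitutive subunits they replace rose. PSMB9, the inducible counterpart of the caspase-like subunit, was at 24.8, 19 and 21.1 FPKM in siNC and at 7.55, 8.76 and 8.19 FPKM in siFOXD3. The mean went from 21.6 ± 2.90 to 8.16 ± 0.606 FPKM (SD, n = 3 each), a log2 fold change of -1.30 ± 0.10 (SE, limma, Benjamini-Hochberg adjusted p = 1.46e-06). All siFOXD3 libraries lay below the lowest siNC library. Its fall was larger than that of 97.2% of the genes tested.

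PSMB8, the inducible chymotrypsin-like subunit, was at 52.4, 58.6 and 61.8 FPKM in siNC and at 35.0, 34.9 and 36.7 FPKM in siFOXD3. It fell from 57.6 ± 4.78 to 35.5 ± 1.04 FPKM (log2 fold change -0.68 ± 0.06, limma, adjusted p = 8.24e-06). The siFOXD3 libraries lay close together and below all siNC libraries. PSMB10, the inducible trypsin-like subunit, was at 23.7, 20.5 and 23.6 FPKM in siNC and at 17.3, 16.2 and 16.4 FPKM in siFOXD3. It fell from 22.6 ± 1.83 to 16.6 ± 0.574 FPKM (-0.42 ± 0.07, limma, adjusted p = 0.000418), the smallest fall of the 3 subunits.

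PSMB8 and PSMB9 sit among the class I and II genes on chromosome 6, and each is on 8 rows of every file, as are their neighbours TAP1 and TAP2, a pattern that alternative haplotypes of the genome build would give. The values above are sums over those rows. For PSMB8 all 8 rows were lower in siFOXD3 without overlap, by ratios of 0.589 to 0.649. For PSMB9 all 8 rows were likewise lower without overlap, by ratios of 0.328 to 0.553. The direction therefore did not rest on the summing, but the absolute level does, and how reads that fit several rows were shared out is not given here. PSMB8 also overlaps an antisense gene, and without a stated use of strand their reads cannot be told apart.

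The constitutive counterpart of PSMB8 is PSMB5, the chymotrypsin-like subunit that proteasome inhibitors such as bortezomib chiefly bind. It was at 104, 98.7 and 97.8 FPKM in siNC and at 137, 135 and 128 FPKM in siFOXD3, and rose by 0.41 ± 0.05 on the log2 scale (limma, adjusted p = 3.65e-05). PSMB6, the caspase-like subunit, was at 185, 168 and 151 FPKM in siNC and at 255, 242 and 238 FPKM in siFOXD3, a rise of 0.55 ± 0.07 (limma, adjusted p = 5.26e-05). Both genes were higher in every siFOXD3 library than in any siNC library. PSMB7, the trypsin-like subunit, was at 214, 205 and 206 FPKM in siNC and at 225, 215 and 228 FPKM in siFOXD3. It was not called (0.10 ± 0.04, limma, adjusted p = 0.079), although its groups did not overlap.

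**Figure D2:**
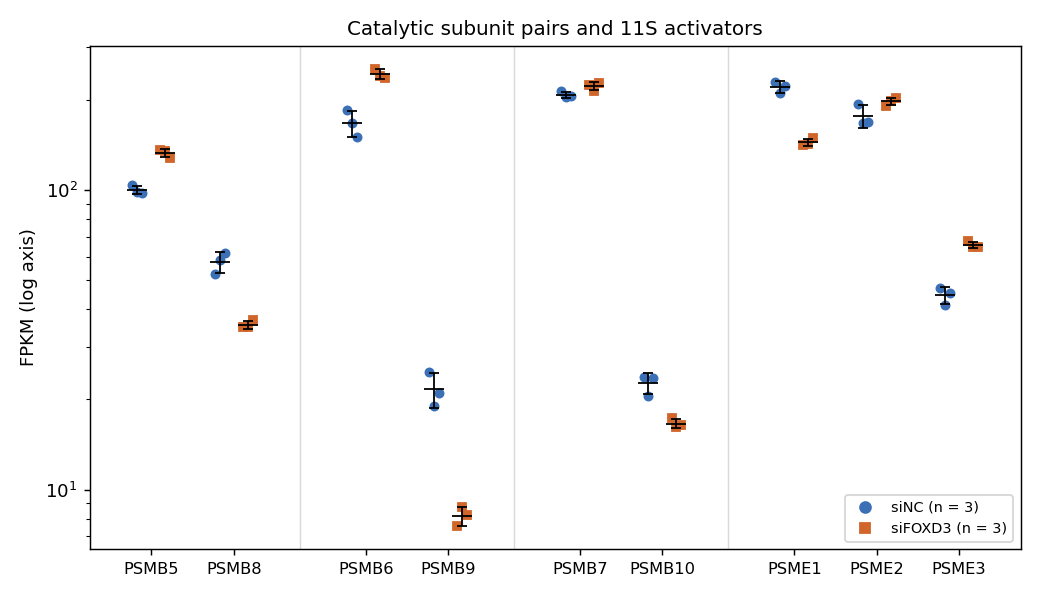
FPKM on a log axis for each catalytic subunit beside the one it replaces and for the 11S subunits (circles siNC, squares siFOXD3, horizontal marks the means and bars the SD, n = 3 each). PSMB8, PSMB9, PSMB10 and PSME1 are lower in siFOXD3, PSMB5, PSMB6 and PSME3 are higher, and PSMB9 is the lowest of them in siFOXD3 at 8.16 FPKM.

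Within each library, the ratio of an inducible gene to its constitutive counterpart does not depend on library size. The ratio of PSMB9 to PSMB6 was 0.134, 0.114 and 0.139 in siNC and 0.0296, 0.0362 and 0.0344 in siFOXD3, a 3.86-fold fall. That of PSMB8 to PSMB5 was 0.503, 0.594 and 0.632 in siNC and 0.256, 0.258 and 0.287 in siFOXD3, a 2.15-fold fall. That of PSMB10 to PSMB7 was 0.111, 0.1 and 0.115 in siNC and 0.0767, 0.0754 and 0.0717 in siFOXD3, a 1.45-fold fall. In all 3 pairs every siFOXD3 library was below every siNC library. With the ratios of PSME1 and PSME2 to PSME3, 5 ratios were compared. Each had p = 0.1 in an exact permutation test (two-sided), and 0.1 after Benjamini-Hochberg adjustment over the 5, which is the smallest p that 3 libraries against 3 allow.

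As a share of the summed FPKM of its pair, PSMB8 took 36.5 ± 2.71% in siNC and 21.1 ± 1.05% in siFOXD3 (SD, n = 3 each). PSMB9 took 11.8, 10.2 and 12.2% of its pair with the control siRNA against 2.88, 3.49 and 3.33% with siFOXD3, and PSMB10 took 9.78 ± 0.617% and 6.94 ± 0.226%. With the highest of the 8 rows in place of their sum, PSMB8 took 8.33 ± 1.14% in siNC and 4.18 ± 0.484% in siFOXD3, and PSMB9 2.27 ± 0.312% and 0.582 ± 0.0136%. The message of the constitutive subunit was thus the larger part of each pair in every library, by either reckoning. The mean of each pair's summed level was higher in siFOXD3, and PSMB6 with PSMB9 averaged 189.5 ± 18.8 FPKM in siNC and 253 ± 8.26 FPKM in siFOXD3.

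The subunits of the PA28 activator parted. PSME1, its alpha subunit, was at 231, 211 and 223 FPKM in siNC and at 142, 143 and 149 FPKM in siFOXD3. It fell from 222 ± 9.87 to 145 ± 3.88 FPKM (log2 fold change -0.61 ± 0.05, limma, adjusted p = 2.33e-06) and went from place 5 to place 13 of the 47 genes by level. PSME2, the beta subunit, was at 195, 168 and 169 FPKM in siNC and at 192, 199 and 203 FPKM in siFOXD3, and these ranges overlap. Its call (0.16 ± 0.06, limma, adjusted p = 0.0355) did not hold with quantile normalization (0.05, adjusted p = 0.436) or with the replicate number as a block (adjusted p = 0.0513), nor without siNC replicate 2 (0.119), siNC replicate 3 (0.116), siFOXD3 replicate 2 (0.0952) or siFOXD3 replicate 3 (0.113). PSME2 was therefore the one gene of the 5 interferon-inducible ones that did not fall. Its promoter window carries GAAAGCGAAA, as does that of PSMB10, and PSMB8 and PSME1 carry the same letters on the other strand. The part of the motif in these changes was not tested.

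The other activators rose. PSME3, the nuclear 11S subunit PA28 gamma, which acts without ubiquitin, was at 47.0, 41.3 and 45.4 FPKM in siNC and at 67.5, 64.6 and 64.6 FPKM in siFOXD3 (0.55 ± 0.06, limma, adjusted p = 1.61e-05). PSME4, the large single-chain activator PA200, was at 12.5, 12.9 and 12.1 FPKM in siNC and at 20.9, 20.5 and 20.1 FPKM in siFOXD3 (0.67 ± 0.06, adjusted p = 5.33e-06). PSMF1, which encodes the inhibitor PI31, rose by less, from 37.8 ± 1.46 to 45.2 ± 1.01 FPKM (0.25 ± 0.05, adjusted p = 0.00155). The ratio of PSME1 to PSME3 was 4.91, 5.11 and 4.91 in siNC and 2.11, 2.21 and 2.31 in siFOXD3, and that of PSME2 to PSME3 was 4.14, 4.06 and 3.72 against 2.84, 3.09 and 3.15. Neither ratio overlapped between the groups.

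The constitutive subunits rose broadly. Of the 31 constitutive subunits of the 20S core and the 19S cap with PSM symbols, 29 rose, against 27.2% of all genes called higher. PSMB4 and PSMB7 were not called, and none of the 31 was lower. Their median log2 fold change was 0.49. Their median lay 0.57 above that of all genes as deposited and 0.38 above it with quantile normalization. Summed over the 31, FPKM was 3556, 3316 and 3178 in siNC and 4561, 4571 and 4506 in siFOXD3, a ratio of 1.36. In bulk RNA, a change in message per cell and a change in which cells were sampled cannot be told apart.

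All 7 alpha subunits, whose ring gates entry into the barrel, rose, by 0.18 to 0.88 on the log2 scale, against 27.2% of all genes called higher. PSMA3 was at 137, 154 and 144 FPKM in siNC and at 262, 260 and 276 FPKM in siFOXD3 (0.88 ± 0.05, limma, adjusted p = 4.40e-07), with all siFOXD3 libraries far above those of siNC. PSMA7 was at 236, 216 and 183 FPKM in siNC and at 373, 377 and 365 FPKM in siFOXD3 (0.81 ± 0.08, adjusted p = 8.24e-06), which took it from place 6 to the highest level of the 47. The siNC values of PSMA7 were the more scattered, and its siFOXD3 values nearly coincided. PSMA4 was at 131, 126 and 121 FPKM in siNC and at 187, 196 and 191 FPKM in siFOXD3 (0.60 ± 0.05), and PSMA5 at 56.3, 52.5 and 53.3 against 74.2, 75.8 and 76.9 FPKM (0.48 ± 0.05). PSMA2 (ratio 1.32), PSMA1 (1.19) and PSMA6 (1.14) rose less. PSMA6 had the highest siNC level of all, 255 ± 11.9 FPKM, and its call did not hold with quantile normalization (0.09, limma, adjusted p = 0.0846). Neighbours within the ring thus changed by unequal amounts, and differences between their changes were not tested.

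Among the structural beta subunits, which line the beta ring without a catalytic site, 3 of 4 rose, against 27.2% of all genes called higher. PSMB2 was at 49.0, 40.9 and 42.0 FPKM in siNC and at 65.0, 64.4 and 63.8 FPKM in siFOXD3 (0.54 ± 0.07, limma, adjusted p = 4.97e-05). PSMB1 was at 261, 235 and 234 FPKM in siNC and at 318, 329 and 324 FPKM in siFOXD3 (0.41 ± 0.05), and PSMB3 at 146, 119 and 129 against 181, 164 and 167 FPKM (0.38 ± 0.07). PSMB4 stood apart from these with overlapping groups, at 250, 236 and 222 FPKM in siNC and 256, 239 and 240 FPKM in siFOXD3 (0.05 ± 0.05, limma, adjusted p = 0.415).

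**Figure D3:**
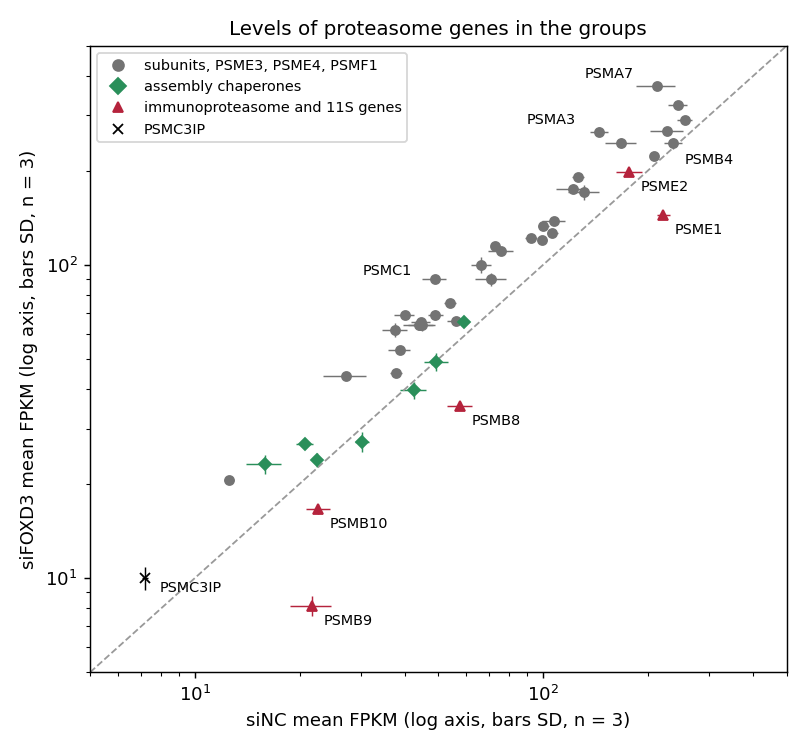
Mean FPKM in siNC (x) and siFOXD3 (y) of each of the 47 genes on log axes, with SD bars (n = 3 each) and a dashed line of equal levels. Most subunits lie above the line over the whole range of levels, PSMB8, PSMB9, PSMB10 and PSME1 lie below it, and PSMB4, PSMG2 and PSMG3 lie near it.

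The 19S cap rose as well. All 17 of its ATPase and non-ATPase subunits with PSM symbols were called higher, against 27.2% of all genes, with a median log2 fold change of 0.53. Of its subunits under other symbols, SHFM1 was called higher (0.31 ± 0.04, limma, adjusted p = 6.73e-05). ADRM1 was not called (0.09 ± 0.06, limma, adjusted p = 0.244), and its groups overlapped. The 6 ATPases, which form the ring that unfolds substrates and threads them into the core, rose by 0.53 to 0.87 on the log2 scale. PSMC1 was at 53.1, 45.8 and 47.4 FPKM in siNC and at 91.5, 87.8 and 90.3 FPKM in siFOXD3 (0.87 ± 0.06, limma, adjusted p = 9.62e-07). PSMC6 was at 72.9, 74.0 and 71.7 FPKM in siNC and at 115, 118 and 113 FPKM in siFOXD3 (0.65 ± 0.04, adjusted p = 8.88e-07). The groups were far apart for both, with little scatter within a group. PSMC4 was at 71.3, 64.7 and 63.3 against 107, 96.9 and 96.1 FPKM (0.58 ± 0.06), and PSMC5 at 81.4, 77.0 and 69.1 against 107, 112 and 113 FPKM (0.54 ± 0.06). PSMC3, the most abundant ATPase message, was at 134, 120 and 110 FPKM in siNC and at 171, 182 and 172 FPKM in siFOXD3, and PSMC2 rose by a ratio of 1.45.

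The non-ATPase subunits hold the ubiquitin receptors, the deubiquitinase and the scaffold of the cap. All 11 with PSM symbols rose, by 0.23 to 0.77. PSMD1, a large scaffold subunit, was at 42.9, 39.4 and 37.7 FPKM in siNC and at 70.3, 68.9 and 68.0 FPKM in siFOXD3 (0.77 ± 0.06, limma, adjusted p = 1.35e-06). PSMD11, a lid subunit that helps hold the cap on the core, was at 39.5, 39.1 and 34.0 FPKM in siNC and at 59.0, 65.6 and 61.2 FPKM in siFOXD3 (0.71 ± 0.07, adjusted p = 8.73e-06). PSMD12, another lid subunit, was at 23.2, 31.0 and 27.4 against 44.8, 43.7 and 44.3 FPKM (0.69 ± 0.09), and its siNC libraries spread the most in relation to their mean. PSMD3 was at 49.6, 42.7 and 42.7 against 61.8, 67.4 and 63.4 FPKM (0.51 ± 0.07). PSMD14, the deubiquitinase that removes ubiquitin chains before degradation, rose by a ratio of 1.41, and PSMD4, a ubiquitin receptor, by 1.21. PSMD6, PSMD8, PSMD13 and PSMD7 rose by ratios of 1.38, 1.29, 1.27 and 1.17. PSMD2 is the other large scaffold and gave the most abundant 19S message with a PSM symbol. It was at 256, 215 and 211 FPKM in siNC and at 273, 272 and 259 FPKM in siFOXD3. Its rise (0.24 ± 0.07, adjusted p = 0.0114) was not called with quantile normalization (0.13, limma, adjusted p = 0.0833).

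Assembly chaperones, which guide subunits together and leave the finished particle, were divided. Of the 7, PSMD5, PSMD10 and PSMG1 rose, against 27.2% of all genes called higher, and the other 4 were not called. Their median log2 fold change was 0.09. PSMG1, which pairs with PSMG2 to build the alpha ring, was at 16.9, 17 and 13.7 FPKM in siNC and at 23.0, 24.7 and 21.5 FPKM in siFOXD3 (0.52 ± 0.09, limma, adjusted p = 0.000446). Its partner PSMG2 was at 45.1, 44.0 and 38.2 against 37.6, 39.2 and 42.4 FPKM (-0.09 ± 0.07, adjusted p = 0.287), with overlapping groups. PSMG3 lay at 52.9, 49.8 and 45.4 against 52.6, 46.8 and 47.3 FPKM (-0.01 ± 0.07, adjusted p = 0.879) and PSMG4 at 30.9, 31.2 and 28.7 against 28.1, 28.6 and 25.1 FPKM (-0.15 ± 0.07, adjusted p = 0.0699). So within the chaperone pairs the called rise belonged to PSMG1 alone, and whether PSMG1 and PSMG2 differ in their change was not tested.

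For the chaperones of the ATPase ring, PSMD5 was at 21.7, 19.4 and 20.8 FPKM in siNC and at 26.7, 26.4 and 27.2 FPKM in siFOXD3 (0.36 ± 0.06, limma, adjusted p = 0.000385). PSMD10, known as the oncoprotein gankyrin, was at 60.5, 58.7 and 58.5 against 66.9, 65.0 and 65.3 FPKM (0.15 ± 0.05, adjusted p = 0.0156). The PSMD10 call did not hold with quantile normalization (0.06, limma, adjusted p = 0.229) or without siFOXD3 replicate 1 (0.14, adjusted p = 0.0674). PSMD9 was not called, at 22.1, 22.8 and 22.4 against 25.2, 23.1 and 23.3 FPKM (0.09 ± 0.06, adjusted p = 0.220). PSMC3IP, the gene matched by symbol only, had the lowest siNC level of the 47, at 7.18, 7.32 and 7.07 FPKM against 10.1, 10.8 and 9.12 FPKM in siFOXD3, and rose by 0.42 ± 0.08 (adjusted p = 0.000828).

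Related genes outside the PSM symbols were counted in lists, read against 27.2% of all genes called higher and 38.7% called lower. Of 12 partners of the proteasome, 8 rose and the other 4 were not called (median log2 fold change 0.27). This list also holds the 19S subunits ADRM1 and SHFM1 and the assembly chaperones POMP and PAAF1. PITHD1, a protein reported on the proteasome, was at 19.5, 18.0 and 17.3 FPKM in siNC and at 35.1, 33.8 and 36.1 FPKM in siFOXD3 (0.91). The deubiquitinases that dock on the 19S cap rose too, UCHL5 from 15.9, 21 and 19.2 to 28.9, 30.6 and 30.5 FPKM (0.66) and USP14 from 22.4 ± 0.162 to 32.2 ± 0.253 FPKM (0.51). Of 16 ubiquitin, E1 and shuttle genes, 8 rose and the other 8 were not called (median 0.11). UBB, a polyubiquitin gene, rose from 682 ± 30.1 to 1026 ± 20.9 FPKM (0.59), UFD1L, a cofactor of the unfoldase VCP, from 29.5, 27.1 and 26 to 41.1, 41.4 and 44.7 FPKM (0.61), and DDI2 from 6.23 ± 0.462 to 10.2 ± 0.773 FPKM (0.63).

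DDI2 is also the protease that cleaves NFE2L1, the transcription factor known for raising proteasome subunit genes when proteasome activity is short. NFE2L1 itself fell, from 56.4, 60.8 and 60.7 FPKM in siNC to 34.3, 33.6 and 34.3 FPKM in siFOXD3 (-0.78 ± 0.05, limma, adjusted p = 7.11e-07), so its message moved opposite to the constitutive subunits. Its small Maf partner MAFF fell from 36.0 ± 1.67 to 15.4 ± 0.804 FPKM (-1.18). Of the 10 regulators of constitutive proteasome genes listed, 3 were called higher and 3 lower (median 0.02). The higher ones were DDI2, NFYB (0.30) and NFYC (0.36), and the lower ones NFE2L1, MAFF and MAFK (-0.36). NFE2L2 was among those not called (0.09). The part of these genes in the rise of the subunits was not tested.

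Regulators of immunoproteasome genes were mostly lower. Of 17, 15 fell, IRF3 and NLRC5 were not called, and none rose (median log2 fold change -0.62). RELB, a subunit of noncanonical NF-kB, was at 20.9, 18.2 and 18.4 FPKM in siNC and at 2.85, 2.55 and 3.38 FPKM in siFOXD3 (-2.36). Its partner NFKB2 fell from 45.7 ± 0.336 to 14.1 ± 0.644 FPKM (-1.63), and IFNGR1, a chain of the interferon gamma receptor, from 48.2 ± 6.71 to 19.7 ± 1.31 FPKM (-1.25). These genes and PSMB8, PSMB9, PSMB10 and PSME1 were lower in the same libraries, and dependence between them was not tested.

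Of 15 genes for class I peptide supply and loading, 11 fell and 4 rose (median -0.87). The 4 that rose were CALR (0.93), CANX (0.65), PDIA3 (0.52) and TAP2 (0.29). The class I heavy chains HLA-B (62.2 ± 8.59 to 6.76 ± 0.529 FPKM, -3.02), HLA-F (-1.74) and HLA-E (-1.18) had the largest falls when the 6 or 7 rows of each were summed. With the highest row in place of the sum, HLA-F fell by 0.88, HLA-B by 2.66 and HLA-E by 1.09 on the log2 scale. Reads of these near-identical genes can also be shared among them. The 17 leukocyte markers, of cells rich in immunoproteasomes, summed to 169 to 186 FPKM in siNC and 92.5 to 95.8 FPKM in siFOXD3. Nearly all of that sum was LCP1, which fell from 95.2 ± 6.89 to 25.5 ± 1.85 FPKM, and CD68. CD14 was lower too (2.92 ± 0.613 to 1.25 ± 0.304 FPKM, log2 fold change -0.80, limma, adjusted p = 0.000702), as was LAPTM5 (2.06 ± 0.241 to 0.210 ± 0.0691 FPKM, -1.34, limma, adjusted p = 4.45e-06). The remaining markers were under 1 FPKM in every library, among them the common leukocyte antigen PTPRC at 0.309 FPKM or less, and CD2 and MS4A1 were listed in none. The part of these markers in the lower immunoproteasome values was not tested.

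**Figure D4:**
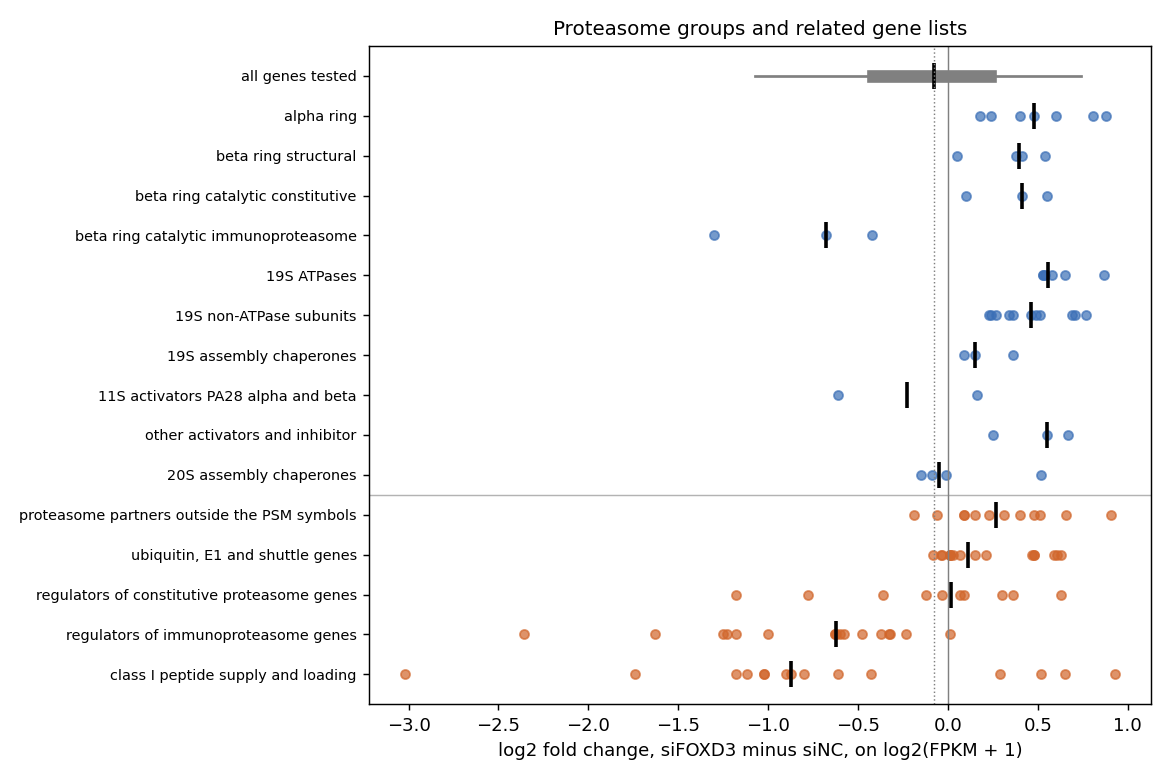
Log2 fold changes (siFOXD3 minus siNC, on log2(FPKM + 1)) of single genes as points, in rows by proteasome role (upper, blue) and by related list (lower, orange), with vertical ticks at the medians. The first row shows all 12555 genes tested as a thin bar from the 5th to the 95th percentile and a thick bar from the 25th to the 75th (-0.42 to 0.24), and the dotted line marks their median of -0.08.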

How the data were processed

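The files hold FPKM per gene symbol for 3 siNC and 3 siFOXD3 libraries, the unit the authors deposited per the file headers. The submitters' processing notes name TopHat, Cufflinks and hg19. No version, annotation or strand setting is given in the sources used here. Rows of 1 symbol were summed and an absent symbol was set to 0. Tests were run on log2(FPKM + 1), since FPKM are not counts, with limma 3.58.1 (R 4.3.3), a model of group alone and eBayes with its trend and robust options. Genes needed 1 FPKM or more in 3 or more of the 6 libraries, which left 12555, and two-sided p-values were Benjamini-Hochberg adjusted over these and called at an adjusted p under 0.05. These fold changes understate those of low genes. The fit was tested on simulated data. Ratios within a library used exact permutation tests in Python 3.11.15.

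Depth was inferred from the spacing of low values, using genes with 1 annotated transcript of 700 to 4000 bases (GENCODE lengths, assumed fragment length 150). Reads shared with processed pseudogenes, which many proteasome genes have, leave levels uncertain. The members and lists were chosen with earlier results of these data known. Named with values in each library were the catalytic pairs, the 11S genes and, in each role, up to 4 called genes with the largest change and the most abundant one; genes not called were named with their values. In each related list up to 3 called genes with the largest change were named. LCP1, CD68, CD14, LAPTM5, PTPRC, IRF3 and NLRC5 were added after their values were seen. So were NFYB, NFYC, MAFK, NFE2L2, CALR, CANX, PDIA3, TAP2, ADRM1, SHFM1, POMP, PAAF1, ABCA4 and ROM1.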

Additional observations from a re-analysis of the deposited data

How the results depend on the processing

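Of the 41 proteasome genes called, 37 kept direction and call under all 14 alternatives, PSMB8, PSMB9, PSMB10 and PSME1 among them; PSMA6, PSMD2, PSMD10 and PSME2 did not. Under the alternatives the number of the 47 called higher ran from 33 (quantile normalization) to 39 (median-of-ratios scaling), and the number called lower was 4 or 5. PSME2, the only gene of the immunoproteasome and PA28 set called higher, gave a count of 0 with no filter on low values (adjusted p = 0.0622), with quantile normalization, in limma without trend and robust (0.0885) and with the replicate block, and 0 to 1 when single libraries were left out. With quantile normalization 1 ubiquitin or shuttle gene was called lower, and with single libraries left out 0 to 1 proteasome partners were. The uncalled PSMB4 (-0.06) and PSMB7 (-0.03) changed sign with quantile normalization, as did PSMG3 with median-of-ratios scaling (0.07) and without siNC replicate 1 (0.04), siFOXD3 replicate 2 (0.02) or siFOXD3 replicate 3 (0.01); with single libraries left out PSMG3 ran from -0.07 to 0.04. PSMB7 was called higher with median-of-ratios scaling (0.18) and without siNC replicate 1 (0.12), PSMD9 with median-of-ratios scaling (0.17), and PSMG4 was called lower (-0.15) with the replicate block and without siNC replicate 3 (-0.19). The causes were not tested.

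Same-numbered libraries of the groups correlated in their deviations at r = 0.0613, 0.163 and 0.115, so not every pair passed 0.1 and the numbers were not treated as pairs, although every library correlated best with its own number. With the replicate block 36 of the 47 genes were called higher and 5 lower, and the 5 ratios kept their values (exact sign-flip permutation p = 0.25, the smallest that 3 pairs allow). All 5 ratios kept their direction under every alternative run, PSMB9 to PSMB6 between -2.04 and -1.55 on the log2 scale.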

Other observations

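TAP2, PSMB8, TAP1 and PSMB9 are adjacent genes of the class II region on chromosome 6, each on 8 rows of every file. TAP1 was at 18.6, 16.0 and 17.6 FPKM in siNC and at 8.69, 9.05 and 9.52 FPKM in siFOXD3 (log2 fold change -0.87 ± 0.07, limma, adjusted p = 4.30e-06), lower in all 8 rows like PSMB8 and PSMB9. TAP2, which encodes the other subunit of the same peptide transporter, was at 33.9, 31.2 and 31.1 FPKM in siNC and at 40.0, 40.2 and 37.8 FPKM in siFOXD3 (0.29 ± 0.06, limma, adjusted p = 0.00126), and it was higher in all 8 rows without overlap, by ratios of 1.18 to 1.31. The TAP2 promoter window also holds GAAAGCGAAA. So each partnership, PSME1 with PSME2 and TAP1 with TAP2, had 1 member that fell and 1 that did not, and each of these genes has a promoter window with the motif, TAP1 in 1 of its 2 windows. These genes were picked after their values were seen, and the part of the motif in their changes was not tested.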
